A study of Mus musculus with 4 samples.

Results

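The immunity-related GTPases are a family of interferon-inducible GTP-binding proteins of the mouse. The 5 genes described here, Irgm1, Irgm2, Igtp, Iigp1 and Tgtp1, were chosen by symbol, and all 5 were among the 12584 genes of the deposited table. They were followed by deposited cell class and by library over 34447 cells. In the pooled macrophage classes of these tumours all 5 stood lowest in the control library, higher in the library with COX2 inhibition, higher again in the one with COX2 inhibition and 5-azacytidine, and highest where the cancer cells overexpressed Irf3 and Irf7. The macrophage classes differed between libraries, and in TAM_H2Ab1, which held most IRF3/7 macrophages, that order did not hold for Iigp1, Igtp or Irgm2. In monocytes the libraries lay closer together for all 5.

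Immunity-related GTPases are made in large amounts when a cell is exposed to interferon-γ, and to a lesser extent to type I interferons. The effector proteins Iigp1 (Irga6) and Tgtp1 (Irgb6) load onto the membrane of the vacuole in which an intracellular parasite lives and help to disrupt it. The regulator proteins Irgm1, Irgm2 and Igtp (Irgm3) sit on the membranes of the cell itself and hold the effectors inactive there.

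Of the 5 genes, Irgm1, Tgtp1, Igtp and Irgm2 lie on chromosome 11 (GENCODE M21, GRCm38). Irgm1 (ENSMUSG00000046879.7) spans chr11:48861968-48871683 on the minus strand, and Tgtp1 (ENSMUSG00000078922.9) spans chr11:48985327-48994172 on the minus strand. Igtp (ENSMUSG00000078853.8) spans chr11:58199556-58207591 on the plus strand, and the annotated span of Irgm2 (ENSMUSG00000069874.7), chr11:58199618-58222782 on the same strand, overlaps it. Iigp1 lies on another chromosome.

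The 100 bases before the RefSeq start of the 4 genes are shown because the members are known interferon targets. Of the 5 members these 4 matched the RefSeq table of start windows, and Iigp1 was not searched. The letters in capitals are matches to GAAA, any 2 bases and GAAA again, the core of the interferon-stimulated response element (ISRE), and to TTCNNNGAA, the core of the interferon-γ-activated site (GAS), searched on both strands. Sequences are RefSeq, GRCm38.p6, written 5′ to 3′ on the strand of the gene. Irgm1 is chr11:48871421-48871520, Igtp is chr11:58199456-58199555, Irgm2 is chr11:58214877-58214976 and Tgtp1 is chr11:48992247-48992346.
Irgm1: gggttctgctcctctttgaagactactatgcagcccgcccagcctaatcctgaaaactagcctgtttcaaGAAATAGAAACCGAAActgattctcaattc
Irgm2: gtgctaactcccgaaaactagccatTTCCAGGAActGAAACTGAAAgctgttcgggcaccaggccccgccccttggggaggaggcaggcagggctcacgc
Igtp: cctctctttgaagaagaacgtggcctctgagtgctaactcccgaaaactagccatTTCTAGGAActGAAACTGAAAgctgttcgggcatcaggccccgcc
Tgtp1: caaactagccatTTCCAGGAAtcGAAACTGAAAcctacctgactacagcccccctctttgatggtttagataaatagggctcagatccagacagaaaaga

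The ISRE letters started 34 bases before the start of Igtp, 64 before Irgm2 and 77 before Tgtp1. Irgm1 held a pair of overlapping matches, starting 30 and 24 bases before its start. Of 32851 RefSeq start windows of 300 bases, 3.44% held the ISRE letters and 8.30% the GAS letters. In Igtp, Irgm2 and Tgtp1 the GAS letters started 11 bases before the ISRE letters, and the GAS letters were not found in the Irgm1 window. That spacing, looked for after these sequences had been read, occurred in 5 windows of all, those of Igtp, Irgm2, Tgtp1, Tgtp2 and Gm12185. The match is one of letters and says nothing about which factor was bound.

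CD45+ cells were sorted from YUMM1.7 melanomas, a mouse line driven by mutant Braf, carrying ovalbumin and grown from cells that had become resistant to targeted therapy (RTT), in Rag2-/- mice, which have no T or B cells of their own. All tumours received OT-1 T cells on day 7 and were taken on day 10, and 3 tumours were pooled for each of 4 libraries. The control tumours (CTRL) carried an empty mCherry vector, the IRF3/7 tumours overexpressed Irf3 and Irf7 in the cancer cells from a viral promoter in a bulk-sorted line, and the COX2i and COX2i + 5-AZA tumours carried the mCherry vector and were given celecoxib, a COX2 inhibitor, alone or with 5-azacytidine, an inhibitor of DNA methylation. Expression was counted as unique molecular identifiers (UMIs) with ligated probe pairs on fixed cells.

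There was 1 library per group, so no difference between groups could be tested. Every interval in parentheses is an exact 95% interval for counting error only and leaves out the spread between tumours. A level is the number of UMIs of a gene per 1000000 UMIs of the cells named (CPM), and because the probes differ between genes, levels are compared within a gene. Libraries held 6329 to 10032 cells and 26356819 to 78722763 UMIs, of which 7921 (CTRL), 21648 (COX2i), 80173 (COX2i + 5-AZA) and 50573 (IRF3/7) came from the 5 genes. The median UMI count per cell was lowest in IRF3/7, at 3168, and 4830 droplet barcodes held cells of more than 1 library, which a multiplexed probe assay allows. Ptprc (CD45) stood between 290 and 723 CPM over all cells and between 18.3 and 37.4 CPM in the class the authors named Myofibrobl, which is called the non-immune class here. The 4 non-immune markers Col1a2, Col3a1, Sparc and Serpinh1 summed to between 7309 and 19244 CPM in that class. The 7 T-cell markers summed to between 9.05 and 46.6 CPM over all cells of a library, with Cd3e and Cd8a at 0 in CTRL. The genes targeted in the IRF3/7 tumours stood out in that same class. Irf7 was at 14910 CPM in its IRF3/7 cells against 8.20 to 67.1 CPM in the other libraries, and Irf3 at 584 CPM against 24.5 to 35.1 CPM. In monocytes and macrophages Irf3 lay between 42.6 and 44.6 CPM in all 4 libraries, and Irf7, itself induced by interferon, stood at 69.3, 92.8, 455 and 3170 CPM in CTRL, COX2i, COX2i + 5-AZA and IRF3/7.

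The first question was how the family stood in each library as a whole. Irgm1 was at 50.4 CPM (48.7 to 52.1) over all CTRL cells, 106 CPM (103 to 108) in COX2i, 372 CPM (368 to 377) in COX2i + 5-AZA and 707 CPM (696 to 717) in IRF3/7. Iigp1 was at 10.5 CPM (9.76 to 11.3), 45.9 CPM (44.5 to 47.5), 244 CPM (241 to 248) and 375 CPM (368 to 382) in the same order. The other 3 genes had this order too, and none of the intervals of a gene overlapped between libraries. Igtp ran from 27.8 CPM in CTRL to 510 CPM in IRF3/7, Irgm2 from 27.3 to 257 CPM and Tgtp1 from 0.604 to 70.3 CPM.

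The libraries also differed in which cells they held. Monocytes (the classes Infl_Mono, Monocyte_1 and Monocyte_3 summed) made up 1.55% of CTRL cells, 6.11% of COX2i, 46.7% of COX2i + 5-AZA and 72.6% of IRF3/7 cells, and macrophages 83.5%, 74.7%, 41.0% and 6.94%. The share of the members' UMIs that came from monocytes followed, at 9.75% (9.10 to 10.4) in CTRL, 15.1% (14.6 to 15.5) in COX2i, 48.9% (48.6 to 49.3) in COX2i + 5-AZA and 66.1% (65.7 to 66.5) in IRF3/7. In the control library, then, 139 monocytes supplied 772 of the 7921 UMIs of the family. The classes were made by the authors from expression, and interferon-responsive genes may have taken part in drawing them, so differences between classes are given as descriptions.

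Within monocytes and macrophages together, all 5 genes kept the order CTRL, COX2i, COX2i + 5-AZA, IRF3/7. Of the regulators, Irgm1 stood at 55.6 CPM (53.7 to 57.7), 109 CPM (107 to 112), 379 CPM (374 to 384) and 828 CPM (814 to 841). Irgm2 stood at 31.4 CPM (29.9 to 32.9), 50.1 CPM (48.4 to 51.9), 134 CPM (132 to 137) and 283 CPM (275 to 291). Igtp stood at 31.7 CPM (30.2 to 33.2), 75.4 CPM (73.2 to 77.6), 280 CPM (276 to 284) and 565 CPM (554 to 576). Irgm2 thus spanned the narrowest range of the family, and no interval overlapped with that of the next library.

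The effectors spanned wider ranges. Iigp1 stood at 12.3 CPM (11.4 to 13.3) in CTRL, 47.3 CPM (45.6 to 49.0) in COX2i, 253 CPM (249 to 257) in COX2i + 5-AZA and 347 CPM (338 to 355) in IRF3/7. Tgtp1 stood at 0.421 CPM (0.267 to 0.631), 3.47 CPM (3.02 to 3.96), 24.0 CPM (22.9 to 25.2) and 70.8 CPM (66.9 to 74.8). The CTRL value of Tgtp1 rests on 23 UMIs. Its transcripts are also nearly a copy of those of Tgtp2, since 79.4% of the 50-base windows in them occur unchanged in Tgtp2. How the probes divide the 2 genes is not known, so the Tgtp1 value is uncertain to that extent. Igtp shares 11.8% of its windows with Irgm2, whose annotated span overlaps its own.

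IRF3/7 against CTRL asks how the sorted cells differ when the cancer cells carry extra Irf3 and Irf7. In monocytes and macrophages together, 5 of 5 members were at least 2-fold higher in IRF3/7, where 9.16% of all genes with enough UMIs were (15.3% with size factors that set the typical gene equal). The log2 ratios were 3.89 (3.84 to 3.95) for Irgm1, 3.18 (3.10 to 3.26) for Irgm2, 4.16 (4.08 to 4.23) for Igtp, 4.82 (4.70 to 4.93) for Iigp1 and 7.39 (6.80 to 8.06) for Tgtp1. The median over all 11793 genes compared was −0.55, and in the other comparisons it lay between −0.19 and 0.33.

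COX2i against CTRL asks the same of celecoxib and uses the same control library. Here 3 of 5 members were at least 2-fold higher, against 1.93% of all genes. The ratios were 0.97 (0.91 to 1.03) for Irgm1, 0.68 (0.59 to 0.76) for Irgm2, 1.25 (1.17 to 1.33) for Igtp, 1.94 (1.82 to 2.06) for Iigp1 and 3.04 (2.42 to 3.73) for Tgtp1. Irgm1 lay just under the 2-fold line with an interval that included it, and the count was 4 of 5 after thinning to 2000 UMIs, with cells weighted equally, over all cells, and without the cells whose droplet barcode occurred in more than 1 library. Tgtp1 was at 4.17 after thinning and 3.78 with equal weights.

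COX2i + 5-AZA and COX2i differ by label in 5-azacytidine, but each is 1 library of pooled tumours and their class makeup differed too, so the drug and the library cannot be told apart. All 5 members were at least 2-fold higher with both drugs, against 6.16% of all genes, with ratios between 1.42 (1.36 to 1.48) for Irgm2 and 2.79 (2.59 to 3.00) for Tgtp1. Against CTRL the combination gave 5 of 5 members with 5.65% of all genes past the same line, from 2.10 (2.03 to 2.17) for Irgm2 to 5.84 (5.24 to 6.50) for Tgtp1. Set against IRF3/7, 4 of 5 members were at least 2-fold lower with the drugs, where 6.63% of all genes were (11.3% with size factors). That count was 1 of 5, Tgtp1, after thinning to 2000 UMIs, with cells weighted equally, and over all cells. Iigp1 was the exception at −0.45 (−0.50 to −0.41), and Tgtp1 the lowest at −1.56 (−1.67 to −1.45).

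The libraries differed more in their macrophages than in their monocytes, a difference that could not be tested with 1 library per group. Different classes made up the macrophages of each library. Of 439 IRF3/7 macrophages 385 were TAM_H2Ab1, against 19 of 7475 in CTRL, 41 of 6820 in COX2i and 419 of 4117 in COX2i + 5-AZA, and the rest were mostly TAM_C1q, TAM_Spp1 and TAM_cycling. Within TAM_H2Ab1 the median member of COX2i + 5-AZA against IRF3/7 was −0.16 (−0.28 to −0.04), against −1.26 (−1.35 to −1.17) in all macrophages. Within TAM_C1q, TAM_Spp1 and TAM_cycling the median member of COX2i + 5-AZA against CTRL was 2.04, 2.21 and 2.94. Monocytes were mostly Infl_Mono in CTRL (93 of 139) and IRF3/7 (4335 of 4596) and mostly Monocyte_1 in COX2i (394 of 558) and COX2i + 5-AZA (3640 of 4684). In macrophages Irgm1 stood at 50.6, 95.4, 290 and 593 CPM in CTRL, COX2i, COX2i + 5-AZA and IRF3/7, and in monocytes at 447, 460, 529 and 864 CPM. The Irgm1 level of the few CTRL monocytes was thus closer to that of IRF3/7 macrophages than to that of CTRL macrophages. Iigp1 stood at 9.82, 37.1, 198 and 294 CPM in macrophages and at 206, 307, 345 and 355 CPM in monocytes. The last 2 monocyte values did not differ beyond counting error, at −0.04 (−0.09 to 0.01) for COX2i + 5-AZA against IRF3/7, and within the classes COX2i + 5-AZA was the higher, at 423 against 358 CPM in Infl_Mono and 335 against 288 CPM in Monocyte_1. The same narrowing held for Irgm2 and Igtp, and for Tgtp1, whose CTRL value was the lowest in both, at 0.315 CPM in macrophages and 8.66 CPM in monocytes.

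**Figure D1:**
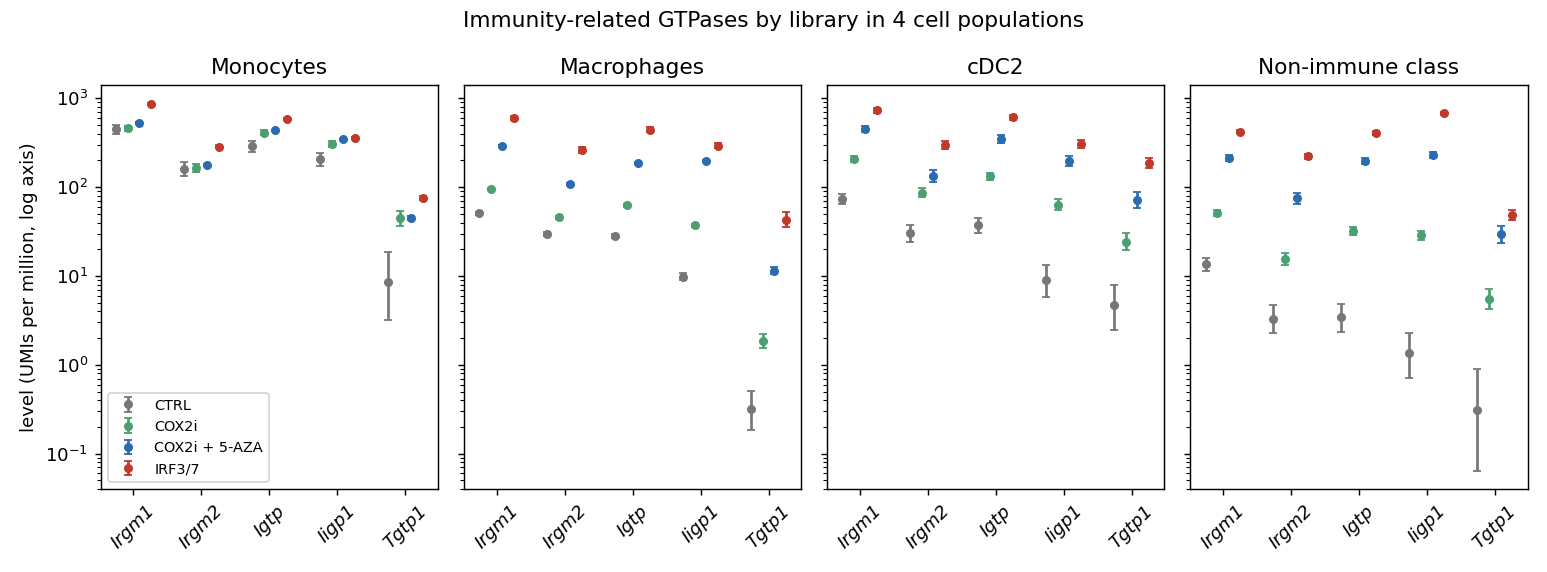
Level of each member in CPM (log axis) in monocytes, macrophages, cDC2 and the non-immune class. Points are the 4 libraries and bars are exact 95% Poisson intervals for counting error. In macrophages, cDC2 and the non-immune class the libraries are spread over a wide range in the order CTRL, COX2i, COX2i + 5-AZA, IRF3/7, and in monocytes they lie close together except for Tgtp1.

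The ratios showed the same gene by gene. IRF3/7 against CTRL gave 3.55 (3.46 to 3.64) for Irgm1 in macrophages and 0.95 (0.79 to 1.12) in monocytes, and 4.91 (4.74 to 5.07) against 0.78 (0.54 to 1.03) for Iigp1. COX2i + 5-AZA against COX2i gave 1.60 (1.56 to 1.65) for Irgm1 in macrophages and 0.20 (0.11 to 0.29) in monocytes, and 2.42 (2.35 to 2.49) against 0.17 (0.06 to 0.28) for Iigp1. In monocytes the intervals of Irgm2, Igtp and Tgtp1 included 0 in that comparison. The monocyte values pool classes that differed. Within Infl_Mono, Iigp1 stood at 226 CPM (190 to 267) in COX2i and 423 CPM (403 to 444) in COX2i + 5-AZA, a log2 ratio of 0.91 (0.65 to 1.17), and Igtp was at 0.39 (0.21 to 0.58). Within Monocyte_1 the intervals of all members but Irgm1 included 0. The median member stood at 0.13 in monocytes and at 1.60 in macrophages, where the medians of all genes compared were −0.08 and −0.12. COX2i against CTRL put Irgm1 and Irgm2 at 0.04 (−0.14 to 0.23) and 0.02 (−0.29 to 0.33) in monocytes, so a difference in these 2 regulators was not detectable there at this depth. Igtp, Iigp1 and Tgtp1 were higher in COX2i monocytes beyond counting error, at 0.50 (0.28 to 0.72), 0.57 (0.31 to 0.84) and 2.36 (1.19 to 3.84). Within Infl_Mono, the only monocyte class with 50 cells in both libraries, Igtp and Tgtp1 stayed higher and Iigp1 did not, at 213 CPM (174 to 258) in CTRL and 226 CPM in COX2i. The 139 CTRL monocytes and 558 COX2i monocytes limit all of these.

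**Figure D2:**
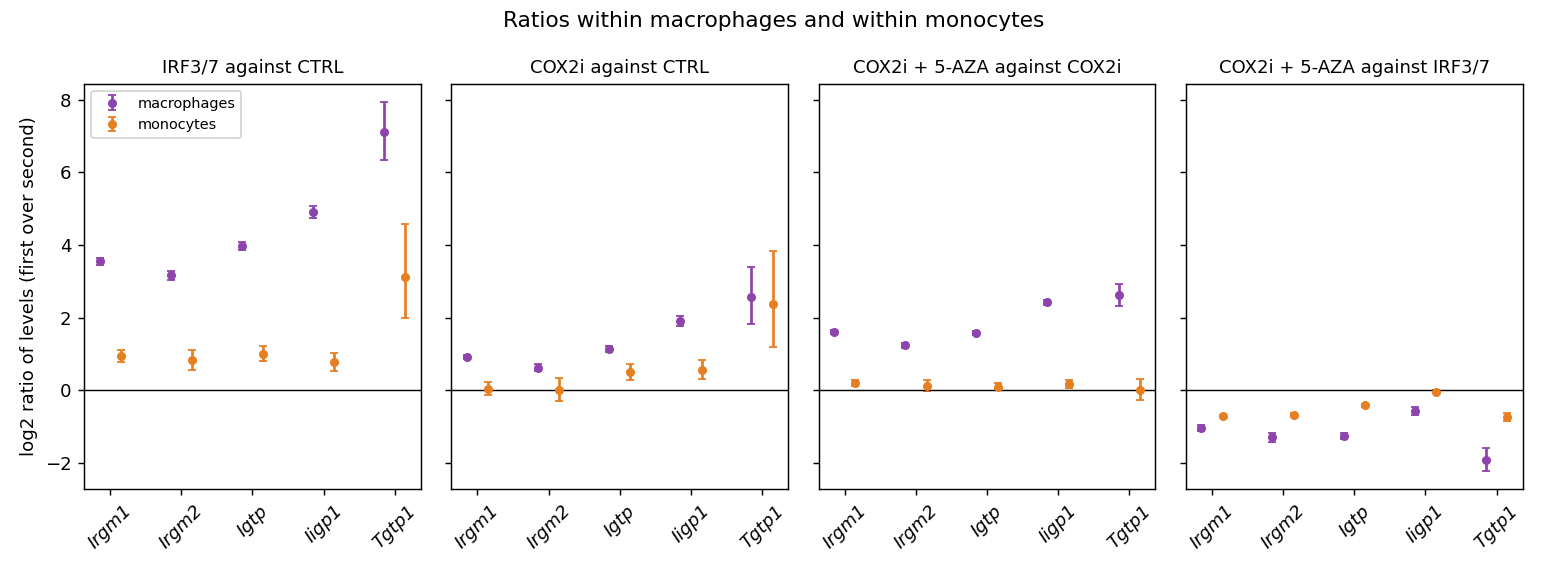
Log2 ratio of the level of each member between libraries, with the first-named library over the second, in macrophages (purple) and monocytes (orange). Bars are exact conditional 95% intervals for counting error. For COX2i + 5-AZA against COX2i the median member is at 1.60 in macrophages and at 0.13 in monocytes, and the classes within each differ between these libraries.

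Giving the classes shared by a pair of libraries the mix of the reference library brought the median ratios over all cells closer to 0, and no member changed sign. Iigp1 in IRF3/7 against CTRL went the other way, from 5.16 to 5.30. The median member of COX2i + 5-AZA against COX2i was 1.96 as sampled and 1.43 over 14 classes given the COX2i mix. Against CTRL it was 3.32 and 2.76 over 11 classes, and against IRF3/7 −0.92 and −0.43 over 10 classes. For IRF3/7 against CTRL it was 4.20 and 3.73, over 6 classes with only 43% of the CTRL UMIs.

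Across single classes, Infl_Mono was high in every library. Its Irgm1 level was 516 CPM (454 to 584) in the 93 CTRL cells, 598 CPM (538 to 662) in COX2i, 691 CPM (665 to 717) in COX2i + 5-AZA and 872 CPM (857 to 888) in IRF3/7. The macrophage classes TAM_C1q, TAM_Spp1 and TAM_cycling were low in CTRL, where Irgm1 stood at 50.3, 44.5 and 49.1 CPM, and in COX2i + 5-AZA it stood at 207, 206 and 295 CPM. The intervals of those 3 CTRL levels overlapped. The highest Irgm1 and Igtp levels of COX2i + 5-AZA and of IRF3/7 were in neutrophils, at 812 and 604 CPM and at 969 and 640 CPM, and the next class in each case overlapped. The lowest CTRL class with Igtp UMIs was the non-immune class, at 3.42 CPM, beside mast cells at 9.42 CPM, which rest on 3 UMIs.

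**Figure D3:**
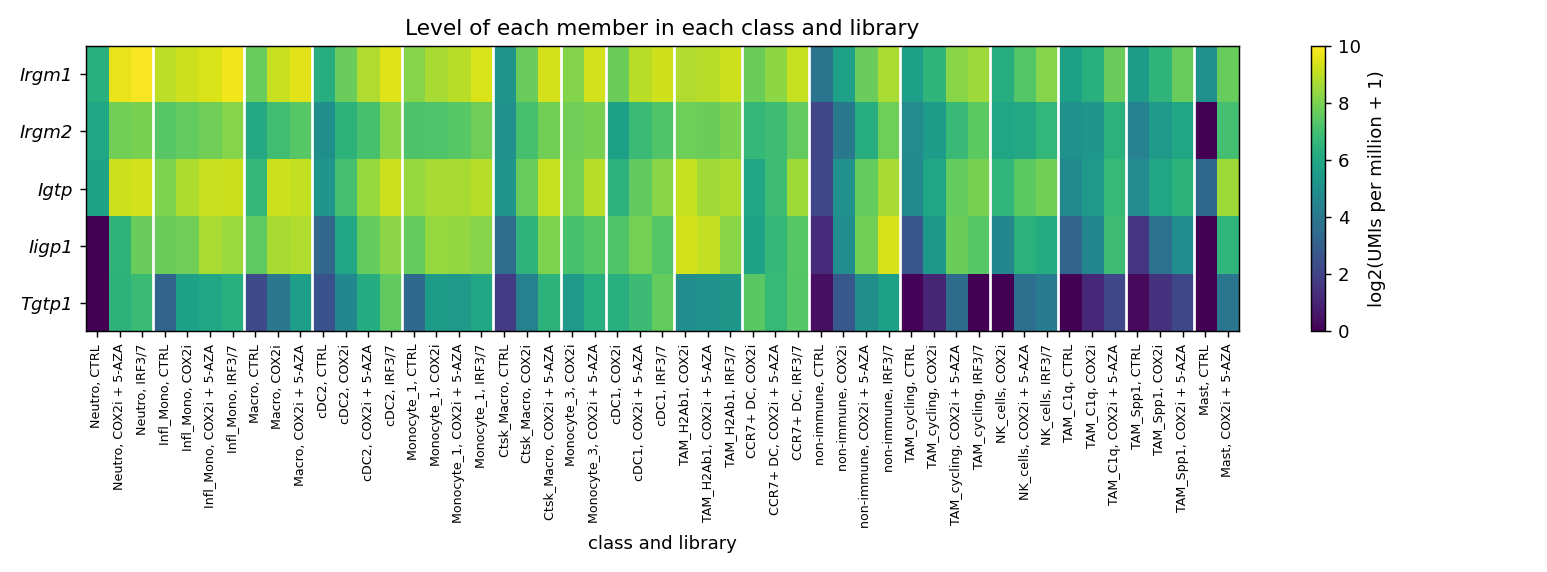
Level of each member, as log2(CPM + 1), in each class and library with at least 20 cells. Columns are grouped by class and ordered within a class from CTRL to IRF3/7, and classes are ordered by their highest Irgm1 level in any library. In each class drawn for CTRL and for COX2i + 5-AZA or IRF3/7, the 3 regulators are lower in CTRL, for example in Infl_Mono, where Irgm1 ran from 516 to 872 CPM. In Monocyte_1, with 44 CTRL cells, the CTRL intervals of Irgm2 and Igtp overlap those of COX2i + 5-AZA and IRF3/7.

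The effectors had their own class patterns. In neutrophils, where Irgm1 and Igtp were highest, Iigp1 was at 90.2 CPM in COX2i + 5-AZA, lower than in 13 of the 16 classes of that library, from 65 UMIs, and at 211 CPM in IRF3/7, where 5 of 10 classes were higher. In TAM_H2Ab1, a macrophage class named for an MHC class II gene, it reached 653 CPM in the 41 COX2i cells and 534 CPM in COX2i + 5-AZA, against 295 CPM in IRF3/7. Igtp there stood at 562, 394 and 440 CPM and Irgm2 at 223, 214 and 261 CPM in the same order. Tgtp1 had its highest level in a dendritic cell class in every library but CTRL, where 13 UMIs or fewer were counted in any class. In COX2i + 5-AZA cDC1 at 115 CPM (85.9 to 151) overlapped Ctsk_Macro at 88.5 CPM (62.9 to 121) and neutrophils at 87.4 CPM (67.2 to 112). In IRF3/7 it stood at 199 CPM in cDC1, 188 CPM in cDC2 and 164 CPM in CCR7+ DC (the class named DC3), whose intervals overlapped with each other and with neutrophils at 112 CPM (67.2 to 174), and at 75.8 CPM in Infl_Mono. In COX2i it stood at 172 CPM in the 28 CCR7+ DC, from 19 UMIs, and at 1.08 to 1.76 CPM in TAM_C1q, TAM_Spp1 and TAM_cycling.

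The non-immune class differed widely between libraries. In CTRL its 554 cells held Irgm1 at 13.5 CPM, Irgm2 at 3.32 CPM, Igtp at 3.42 CPM, Iigp1 at 1.35 CPM from 13 UMIs, and Tgtp1 at 0.311 CPM from 3 UMIs. Its 172 cells in IRF3/7 held them at 422, 223, 407, 679 and 48.4 CPM. The Iigp1 level there was the highest of any class in that library, above Infl_Mono at 358 CPM beyond counting error. The log2 ratio of Iigp1 was 8.97 (8.20 to 9.89) for IRF3/7 against CTRL, 4.41 (3.62 to 5.34) for COX2i against CTRL and 3.02 (2.82 to 3.21) for COX2i + 5-AZA against COX2i. These 172 cells were 2.72% of IRF3/7 cells and supplied 15.8% (15.5 to 16.1) of the UMIs of the family. They are also the cells with the Irf3 and Irf7 levels given above, and the part of that in the result was not tested. Over the other classes the median IRF3/7 to CTRL ratio was 4.06, against 4.20 with all cells.

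The proportions within the family differed between libraries, and proportions do not depend on how libraries are scaled. In macrophages Iigp1 made up 8.27% (7.60 to 8.97) of the UMIs of the 5 genes in CTRL, 15.3% (14.7 to 15.9) in COX2i, 25.0% (24.5 to 25.5) in COX2i + 5-AZA and 17.9% (16.7 to 19.2) in IRF3/7. Irgm2 made up 25.0% (23.9 to 26.1), 18.9% (18.2 to 19.5), 13.6% (13.3 to 14.0) and 16.2% (15.0 to 17.3). These shares pool the different macrophage classes of each library. Within COX2i + 5-AZA the Iigp1 share ran from 7.47% in TAM_Spp1 to 32.0% in TAM_H2Ab1, and in TAM_H2Ab1 it was 34.2% in COX2i and 18.0% in IRF3/7. Within TAM_C1q it was 7.05% in CTRL, 12.6% in COX2i and 22.6% in COX2i + 5-AZA. In monocytes Iigp1 made up 18.5% (15.8 to 21.5), 22.1% (20.7 to 23.6), 22.5% (22.1 to 22.9) and 16.4% (16.0 to 16.8). In the non-immune class it went from 6.16% (3.32 to 10.3) in CTRL to 38.2% (37.1 to 39.2) in IRF3/7, and Irgm1 from 61.6% (54.7 to 68.2) to 23.7% (22.8 to 24.7).

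**Figure D4:**
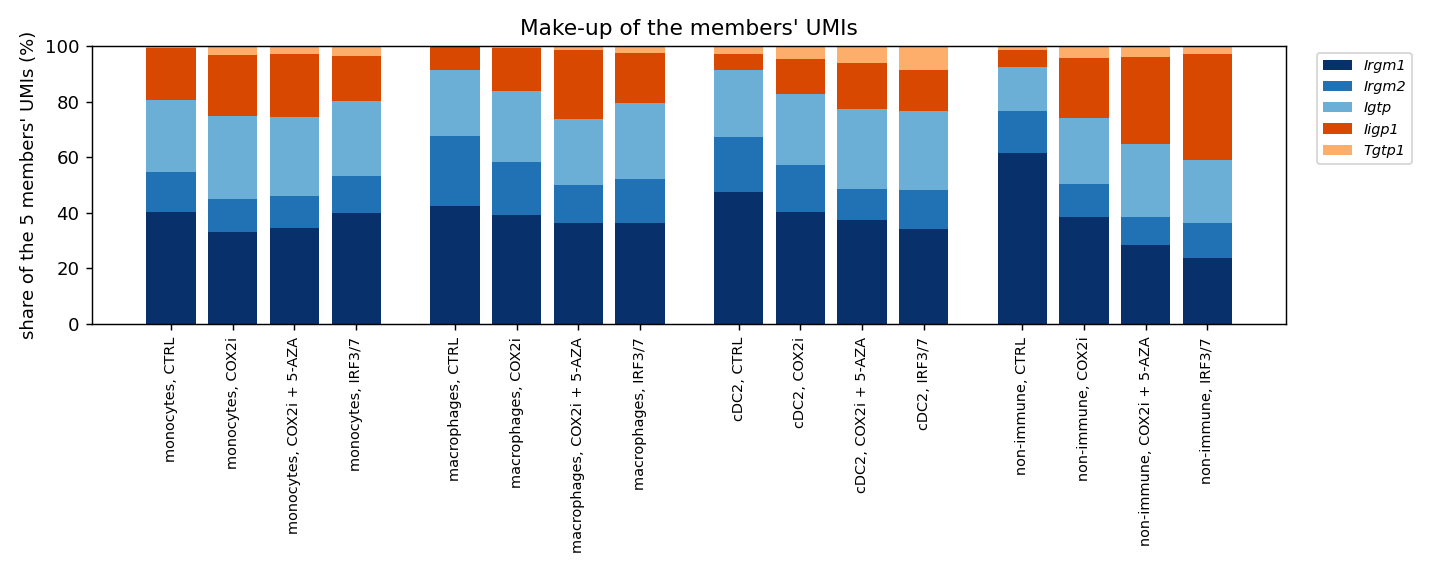
Share of the UMIs of the 5 members that each member supplied, in percent, in 4 populations and 4 libraries. Blue bars are the regulators and orange bars the effectors. In macrophages the Iigp1 share is 8.27% in CTRL and 25.0% in COX2i + 5-AZA, and in the non-immune class it is 6.16% in CTRL and 38.2% in IRF3/7.

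The share of cells with a UMI was taken after thinning each cell to 2000 UMIs, since IRF3/7 cells were shallower. At least 1 member was seen in 18.4% (17.5 to 19.3) of CTRL monocytes and macrophages, 31.3% (30.2 to 32.4) of COX2i, 73.0% (72.1 to 74.0) of COX2i + 5-AZA and 92.9% (92.1 to 93.7) of IRF3/7. Thinning left out 212, 187, 492 and 975 shallower cells, and without it the shares were 42.3%, 61.1%, 90.3% and 95.5% at median depths of 6259.5, 7611.5, 6300 and 3148 UMIs. No background for free RNA was measured, since every class carried members of the family. In the non-immune class the thinned shares were 4.99%, 12.0%, 41.5% and 84.1%.

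Cells also differed in how many of the 5 genes they showed. In CTRL macrophages 82.6% of thinned cells showed none and 0.358% showed 3 or more, and in IRF3/7 macrophages 13.0% showed none and 31.9% showed 3 or more. COX2i and COX2i + 5-AZA macrophages lay between, with 1.73% and 11.6% at 3 or more. Among monocytes the share with 3 or more was already 20.1% in CTRL (134 cells), 29.2% in COX2i, 32.1% in COX2i + 5-AZA and 43.9% in IRF3/7. The non-immune class of COX2i + 5-AZA was mixed, with 58.5% of 159 cells at none and 11.3% at 3 or more.

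**Figure D5:**
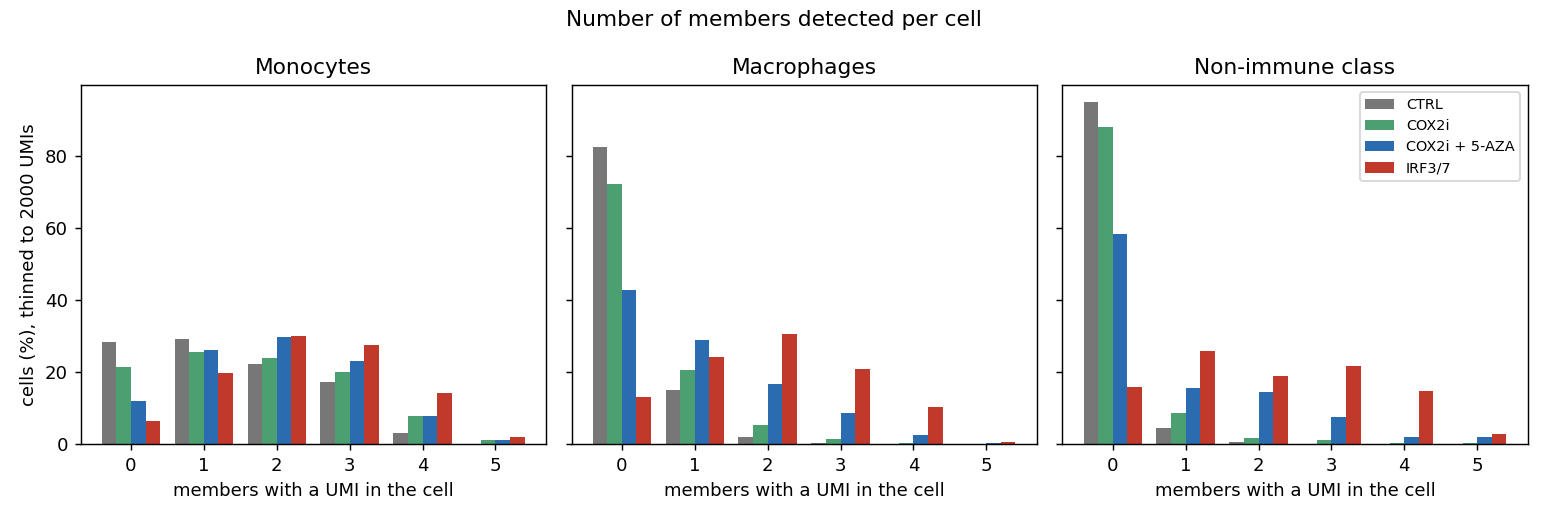
Share of cells, in percent, that showed 0 to 5 of the 5 members after thinning to 2000 UMIs per cell, in monocytes, macrophages and the non-immune class. Bars are the 4 libraries. In CTRL macrophages 82.6% of cells showed no member, and in IRF3/7 macrophages 13.0%.

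Of 13 other immunity-related GTPases listed, 4 were in the table. In monocytes and macrophages Ifi47 (Irgd) stood at 45.1, 97.4, 288 and 714 CPM and Tgtp2 at 2.76, 10.4, 37.1 and 82.5 CPM in CTRL, COX2i, COX2i + 5-AZA and IRF3/7, the order of the 5 members. Irgq, a family member not known as an interferon target, stood at 18.5, 16.3, 12.6 and 7.67 CPM, the reverse order, and kept that order with size factors. Irgc1, a gene known from testis, stood at 0.293, 0.256, 2.05 and 1.18 CPM, with 16 UMIs in CTRL. Irgq thus differed in direction from the members in each of these comparisons. The guanylate-binding proteins, the related large GTPases that act on the same vacuoles, had 9 genes in the table. All 9 were at least 2-fold higher in IRF3/7 than in CTRL and in COX2i + 5-AZA than in COX2i, and 6 of 9 in COX2i than in CTRL. Of all genes, 9.16%, 6.16% and 1.93% were past that line in these comparisons. The medians of the guanylate-binding proteins were 4.31, 2.38 and 1.50, where the 5 members had 4.16, 1.89 and 1.25.

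The autophagy genes of Atg8 conjugation, whose products direct these GTPases to membranes, showed no such order. None of 10 was at least 2-fold higher in any of the 4 comparisons with CTRL or COX2i as reference, where 1.93% to 9.16% of all genes were. The medians of the 10 lay between −0.22 and 0.21. Gabarapl1 was at least 2-fold lower in IRF3/7, at −1.24 (−1.41 to −1.08) against CTRL, where 32.2% of all genes were (19.8% with size factors).

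In CPM the interferon-γ receptor genes Ifngr1 and Ifngr2 were not higher in the libraries with more of the members. For IRF3/7 against CTRL, Ifngr1 was the lowest of its list at −0.48, where the median over all genes compared was −0.55. The direction of both receptor genes in that comparison therefore depends on the scaling. In monocytes and macrophages Ifngr1 stood at 439 CPM in CTRL, 319 in COX2i, 257 in COX2i + 5-AZA and 315 in IRF3/7, and Ifngr2 between 204 and 227 CPM. Jak1, a kinase at that receptor, lay between 139 and 193 CPM. Further down the pathway, the transcription factor Irf1 followed the order of the members, at 104, 209, 733 and 1237 CPM. Socs1, an inhibitor of the same pathway, gave the highest log2 ratio of the list, at 5.09 (4.97 to 5.21) for IRF3/7 against CTRL, 1.25 (1.11 to 1.38) for COX2i against CTRL and 2.78 (2.71 to 2.86) for COX2i + 5-AZA against COX2i. Jak2 was at 2.20 (2.14 to 2.26), −0.01 (−0.08 to 0.06) and 0.99 (0.94 to 1.05), and Irf8 at 1.05 (1.01 to 1.10), 0.19 (0.16 to 0.23) and 0.98 (0.95 to 1.01).

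Targets compiled as skewed to one interferon or the other were set beside the members. Of 11 type I-skewed targets with enough UMIs, all 11 were at least 2-fold higher in IRF3/7 than in CTRL and in COX2i + 5-AZA than in COX2i, with medians of 5.69 and 1.96, and 0 of 11 in COX2i against CTRL, with a median of 0.44. Of the interferon-γ-skewed targets, 12 of 12, 12 of 12 and 4 of 11 were, with medians of 3.60, 2.47 and 0.81. The share of all genes past the same line was 9.16%, 6.16% and 1.93% in these comparisons. In COX2i + 5-AZA against IRF3/7 the medians were −3.26 for the type I-skewed list, 0.34 for the interferon-γ-skewed list and −1.08 for the 5 members, which lay between them. The type I interferon receptor and signalling genes had 4 of 7 past the line in IRF3/7 against CTRL, 0 of 7 in COX2i against CTRL and 3 of 7 in COX2i + 5-AZA against COX2i, with Usp18, a brake on that receptor, at 5.56 in IRF3/7 against CTRL.

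Ifng itself, the cytokine, was read over all cells, and natural killer (NK) cells supplied 3 of its 7 UMIs in CTRL, 33 of 37 in COX2i, 377 of 696 in COX2i + 5-AZA and 840 of 1437 in IRF3/7. It stood at 0.103 CPM in CTRL, 0.470 CPM in COX2i, 9.13 CPM in COX2i + 5-AZA and 54.5 CPM in IRF3/7, the order of the members. NK cells were 0.123%, 0.547%, 4.36% and 8.97% of the cells in that order. Within NK cells Ifng stood at 129 CPM (89.0 to 182) in the 50 cells of COX2i, 199 CPM (179 to 220) in COX2i + 5-AZA and 418 CPM (390 to 447) in IRF3/7. The 11 NK cells of CTRL were too few to describe. Monocytes and macrophages supplied 3, 3, 52 and 24 of the Ifng UMIs in CTRL, COX2i, COX2i + 5-AZA and IRF3/7. Many of the other Ifng UMIs of COX2i + 5-AZA and IRF3/7 came from classes not broken down here. The part of NK cells or of Ifng in the members' levels was not tested. Of the cytokines that elicit it, Il18 stood at 53.8, 40.0, 75.1 and 199 CPM and Il15 at 11.7, 14.4, 18.4 and 89.3 CPM in monocytes and macrophages. Il12a, a subunit of interleukin-12, was highest in COX2i, at 2.21 CPM against 0.128 in CTRL, 0.336 in COX2i + 5-AZA and 0.840 in IRF3/7, and Il12b, the other subunit, did not exceed 1.01 CPM in these cells. Over all cells Il12b stood at 0.486 CPM in CTRL, 1.26 CPM in COX2i, 1.85 CPM in COX2i + 5-AZA and 4.82 CPM in IRF3/7, the order of the members.

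Genes were ranked by how closely they followed the mean of the members over 40 sums of a class in a library with at least 50 cells. These points share libraries, depth and free RNA, so the correlations describe likeness and carry no test. Of 11469 genes, those named here among the 10 closest were Tgtp2 (Pearson r = 0.956), Ifi47 (0.936), Batf2 (0.927), Gbp2 (0.925), Zbp1 (0.921), Gbp5 (0.921), Gbp3 (0.917), Irf1 (0.905) and Parp9 (0.899). Tgtp1 is part of the mean and shares 79.4% of its 50-base windows with Tgtp2. The value of Tgtp2 may therefore rest in part on the same signal. The members themselves ranged from 0.922 for Tgtp1 to 0.976 for Irgm1. Each member is part of that mean, so these values are raised by construction and are not comparable with those of other genes.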

How the data were processed

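CD45+ cells of 4 tumour pools were profiled with Chromium Flex, a probe assay on fixed cells. The authors ran Cell Ranger 7.1.0 (mm10, GRCm38), filtered cells, named classes from clusters and deposited UMI counts that were not normalised. Here counts were summed by class and library and scaled to CPM. Classes of at least 20 cells were described, and ratios needed 50 cells in each library and 20 UMIs over both. The floor for a gene with no UMI was 3 counts per library, or 0.0381 to 0.114 CPM. Intervals at 95% are exact Poisson (levels), Clopper-Pearson (shares) and conditional (ratios), cover counting error only, and were tested on simulated data. No test between groups was possible with 1 library each. The members and gene lists were chosen with earlier results of these data known. Named genes were the members, genes of the lists of other immunity-related GTPases, interferon-γ signalling and cytokines, the highest or lowest gene of the other lists, and the 10 genes most like the members by Pearson correlation of log2(CPM + 1). Some items that this rule names are not reported here. Doublets were not called here. Other scalings, thresholds, depths and class mixes were tried. Leaving out cells that share a droplet barcode was added after the data were seen. Python 3.11.15, NumPy 2.4.6, SciPy 1.17.1 and pandas 2.3.3 were used.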

Additional observations from a re-analysis of the deposited data

Results flagged for a closer look

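Iigp1 differed in direction between classes when COX2i + 5-AZA was set against IRF3/7. Of 7 classes with at least 50 cells in both libraries, 3 had more Iigp1 with the drugs, 3 had less, and in 1 the interval included 0. The log2 ratio was 0.24 (0.16 to 0.32) in Infl_Mono, 0.22 (0.02 to 0.42) in Monocyte_1 and 0.86 (0.73 to 0.99) in TAM_H2Ab1. It was −0.76 (−1.45 to −0.06) in CCR7+ DC, −0.64 (−0.87 to −0.41) in cDC2 and −1.55 (−1.67 to −1.42) in the non-immune class. The intervals cover counting error only, and the difference between classes was not tested, since each group is 1 library.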

How the results depend on the processing

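Of 134 values under an alternative, 96 stayed within the interval of the reported value or within 1.5 times the count, and none changed sign, nor did any of 175 single-member values. In monocytes and macrophages the median member of IRF3/7 against CTRL was 4.67 with size factors, 4.07 after thinning and 4.06 with cells weighted equally. For COX2i against CTRL it was 1.42 with equal weights. For COX2i + 5-AZA against COX2i it was 2.06 with size factors and 1.98 thinned. Against CTRL it was 3.31, 3.26 and 3.32 with size factors, thinning and equal weights, and against IRF3/7 −1.42, −0.96 and −0.93. At 4-fold, 1 member passed between COX2i and CTRL, where 0.260% of all genes did, and 2 passed between the drug combination and COX2i, where 2.19% did. Tgtp1 moved by more than the other members after thinning, to 7.99 for IRF3/7, 4.17 for COX2i and 6.75 for COX2i + 5-AZA against CTRL, and with equal weights to 3.78 for COX2i. With every cell included, size factors, leaving out the non-immune class and the reference class mix gave 4.48, 4.06 and 3.73 for IRF3/7 against CTRL. The same gave 2.14, 1.84 and 1.43 for COX2i + 5-AZA against COX2i, 3.49, 3.14 and 2.76 against CTRL, and −1.03, −0.98 and −0.43 against IRF3/7. The class mix also put Tgtp1 at 5.55 and Irgm1 at 3.14 for IRF3/7 against CTRL, and Tgtp1 at −0.47 and Igtp at −0.23 for COX2i + 5-AZA against IRF3/7. In the non-immune class size factors gave −1.31 for COX2i + 5-AZA against IRF3/7. The share of all genes at least 2-fold higher became 15.3% for IRF3/7 against CTRL and 13.1% for COX2i + 5-AZA against IRF3/7, where the share at least 2-fold lower became 11.3%. The share of monocytes and macrophages with a member at 1000 UMIs and unthinned was 10.4% and 42.3% in CTRL, 20.8% and 61.1% in COX2i, 56.8% and 90.3% in COX2i + 5-AZA, and 79.5% and 95.5% in IRF3/7. With Spearman ranks, 6 of the 10 most similar genes were shared. The causes were not tested. No paired analysis was possible because each group is 1 library. The spread between tumours is unknown, Tgtp1 in CTRL rests on 41 UMIs, and CTRL has 139 monocytes.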
